A study of Mus musculus with 26 samples.

Results

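Transcript levels of the Wnt ligands, their receptors, their secreted and intracellular inhibitors, and the factors and target genes at the end of the pathway were examined across 26 mouse skin cell lines. The genes were chosen by symbol: every Wnt, Fzd, Sfrp or Dkk followed by a digit, together with Lgr4, Lgr5, Lgr6, Lrp5, Lrp6, Axin2, Lef1, Tcf7, Tcf7l1, Tcf7l2, Nkd1 and Wif1, wherever a probe set was assigned to a single gene. This gave 49 of the 18193 genes measured, namely 19 ligands, 15 receptors, 10 inhibitors, 4 factors or targets, and Fzd10os, an antisense transcript at the Fzd10 locus that matches the symbol rule. Tcf7 had no single-gene probe set and was not analysed here. A gene was tested where its value exceeded the median of its array on at least 2 arrays, a filter that kept 35 of the 49.

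Wnt proteins are secreted, lipid-modified ligands that bind Frizzled receptors together with the co-receptors Lrp5 and Lrp6, which stabilises beta-catenin and lets it act with Tcf and Lef factors on target genes such as Axin2. Lgr4, Lgr5 and Lgr6 bind R-spondins and raise the amount of Frizzled at the membrane, whereas Sfrp, Dkk and Wif1 proteins act against the ligand or the co-receptor outside the cell. In skin the pathway is known for its part in hair follicle formation and cycling and in the upkeep of epidermal stem cells, and several ligands also signal without beta-catenin to set cell polarity and movement.

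Each line was grown in serum, RNA was taken in log phase, and 1 Affymetrix M430 2.0 array was hybridised per line. Of the immortalised keratinocyte lines C5N and NK (n = 2), the latter came from a p53 null mouse. The carcinoma lines without spindle pathology (n = 12) were PDV, PDVC57, B9, B9ras, B9rassmad and E4, for which no cross is named, the Spretus/CBA lines MSCP1, MSCP5, MSC7A, MSC11B and MSC12, and the Spretus/NIH line SN161. The carcinoma lines with spindle pathology (n = 7), an elongated, fibroblast-like form of squamous carcinoma, were A5, D3, D3DP, H11, MSN2, CarB and CarC. For none of these 7 is a Spretus cross named, against 6 of the 12 non-spindle lines. Spindle state and cross therefore cannot be fully told apart where these groups are compared. The papilloma line P6, the lines 2945CA and MSCb1 with no stated spindle state, B9Smad, and the third keratinocyte line in the series entered no comparison, the last 2 because label and flag conflict. Alleles and ages behind the tumours are not stated in the labels, and some lines share a name stem (PDV with PDVC57, B9 with B9ras and B9rassmad, D3 with D3DP, CarB with CarC). All values are log2 RMA values, on which a difference of 1 is a 2-fold difference in signal, and levels of different genes are not set against each other because probe sets differ in brightness.

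The squamous epithelial identity of the lines was checked with Krt5, Krt14, Cdh1, Epcam and Dsp. Their mean log2 level was 12.94 in C5N and 12.77 in NK, and between 4.06 and 5.51 in the 7 spindle lines. Among the non-spindle lines it ranged from 4.0 to 13.08. MSC12, MSC7A and MSC11B, all labelled as lacking spindle pathology, had means of 4.0, 4.16 and 5.11, within or beside the spindle range, with Cdh1, which encodes E-cadherin, at 3.25, 3.54 and 3.25. For members described singly, differences that involve non-spindle lines are given with and without these 3 lines, which were set apart after their values were seen. Means of Vim, Zeb1, Cdh2, Fn1 and Pcolce, mesenchymal markers, were 10.94 to 11.66 in spindle lines and 11.75 to 12.22 in these 3. In the other non-spindle lines they ran from 6.14 in B9 to 11.45 in MSCP5, whose squamous mean was 12.59. E4 and SN161 had squamous means of 9.31 and 9.48, but Krt5 at only 4.79 and 5.60. Means of 5 melanocyte markers stayed between 4.45 and 5.04 and those of 5 endothelial markers between 3.94 and 4.84 in all 26 lines, where array medians were 5.04 to 5.15. Means of the 4 blood markers measured lay between 4.94 and 6.46, highest in SN161, where the macrophage marker Cd68 was well above the array median and the leukocyte marker Ptprc was 3.44. SN161 also had the highest Wnt7a and Wnt7b levels, and the part of this signal in them was not tested. Means of 6 fibroblast markers reached 10.44 in CarC and 8.80 in CarB, with MSC12 between them, against 4.34 to 4.66 in the keratinocyte lines.

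The receptors Lgr4 and Fzd7 had lower means in carcinoma lines than in the keratinocyte lines C5N and NK. With all lines, Lgr4 was called only in spindle lines, and missed the test in non-spindle lines (limma adjusted p = 0.0601). Lgr4 fell by 3.27 on the log2 scale in spindle lines, and Fzd7 fell in both carcinoma groups, by 2.02 in non-spindle and by 1.77 in spindle lines. Both Fzd7 calls were lost without C5N, and the call in spindle lines was also lost with name family as a random block. Members were called where limma's adjusted p, corrected over all 12641 genes tested, was under 0.05. In non-spindle against keratinocyte lines 1 of 35 members was called, lower, where 2.02% of all tested genes were called in either direction and 1.13% were called lower. In spindle against keratinocyte lines 2 of 35 members were called, both lower, where 5.35% of all tested genes were called and 2.95% were called lower. Without MSC12, MSC11B and MSC7A the counts were 2 of 35 (Lgr4 and Fzd7, with 1.9% of all tested genes) and 2 of 35 (the same members, with 7.51%). With B9Smad and the third keratinocyte line placed by their labels they were 0 of 35 (1.29%) and 2 of 35 (Lgr4 and Wnt10a, 6.37%). These comparisons share the keratinocyte lines. In bulk RNA, fewer cells with a transcript and less transcript per cell cannot be told apart.

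Between spindle and non-spindle carcinoma lines no member passed limma's test, 0 of 35, where 0.0633% of all tested genes did. An unadjusted p under 0.05 was reached by 8 members, 2 higher and 6 lower in spindle lines, against 20.7% of all tested genes. Without MSC12, MSC11B and MSC7A the same fit called 10 of 35 members, 3 higher and 7 lower, and 15.5% of all tested genes. Those higher were Dkk3, Nkd1 and Tcf7l2, and those lower were Wnt7a, Wnt7b, Wnt9a, Fzd6, Lgr4, Lrp5 and Lrp6. In a further fit all lines were kept under limma's array weights, which are smaller for arrays that lie far from their group mean. With 1 array per line, such weights do not separate technical quality from a line unlike its group. There 8 members and 17.6% of all tested genes were called, with Nkd1 higher and Axin2, Lgr4, Lrp6, Wnt4, Wnt7a, Wnt7b and Wnt9a lower. In no member did all spindle lines lie on 1 side of all non-spindle lines, which held for 0.0554% of all tested genes. The median difference over the 35 members was -0.10 on the log2 scale with all lines, against 0.04 over all genes tested.

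The genes differed in how far they varied from line to line. Over the 26 lines 24 of the 49 members spanned 2 or more log2 units between their lowest and highest line. Of these 24, 21 were tested members. A range of 1 to 2 units was seen for 11 members, and 14 spanned less than 1. The same count was not made over all genes, so these ranges are not set against them. The wide group held 9 ligands, 10 receptors, 3 inhibitors and the factor or target genes Tcf7l2 and Axin2. Among tested members only Fzd10, Fzd10os, Nkd1 and Sfrp5 spanned less than 1 unit.

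**Figure D1:**
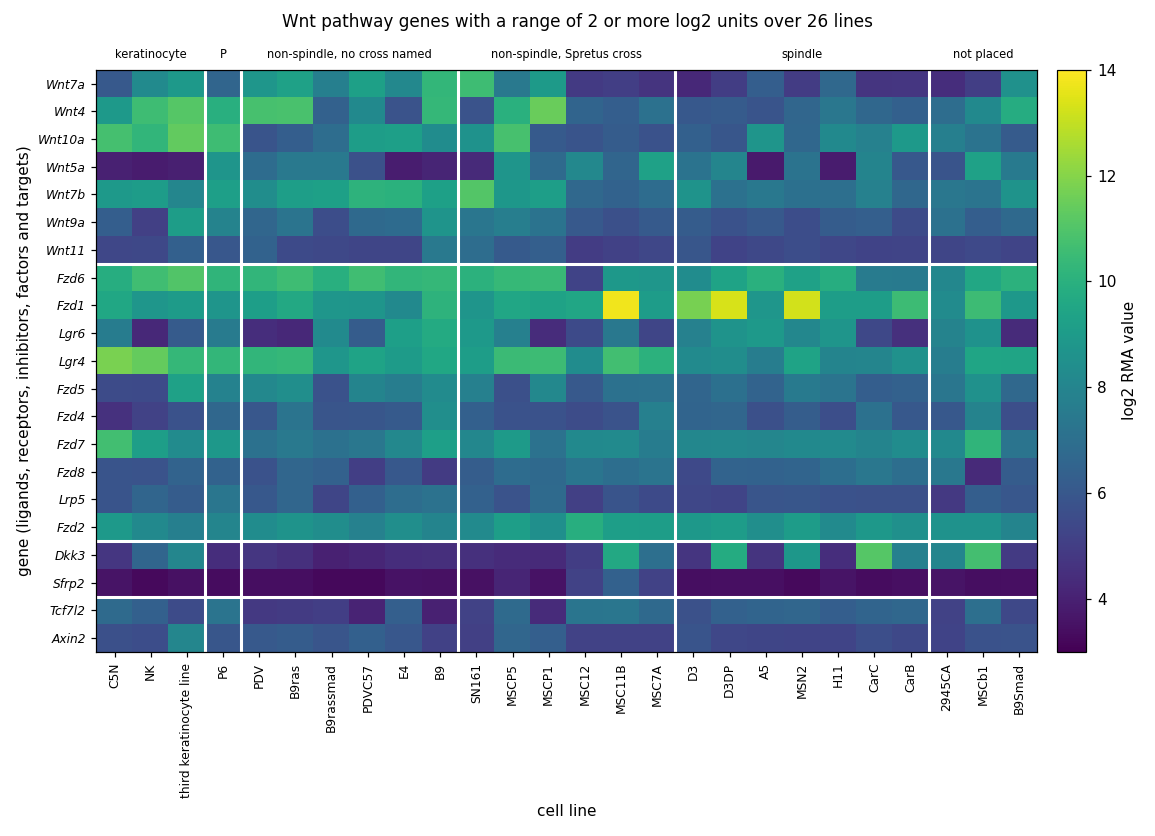
Log2 RMA values of the 21 tested genes that spanned 2 or more log2 units (rows) in each of the 26 lines (columns, ordered by group), with colour giving the value. Wnt4, Wnt7a and Wnt7b are low in most spindle columns and in MSC12, MSC11B and MSC7A, Fzd1 stands out in MSC11B, D3DP, MSN2 and D3, and Dkk3 is highest in CarC.

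Among the tested ligands, Wnt7a and Wnt4, both made by epidermal cells, had the largest differences in mean between the carcinoma groups. Neither passed the test with all lines weighted equally. The log2 level of Wnt7a in non-spindle lines ran from 4.67 in MSC7A through a median of 8.47 to 10.58 in SN161. In spindle lines it ran from 4.28 in D3 through a median of 4.97 to 6.71 in H11, and it was 6.08 in C5N and 8.26 in NK. The groups overlapped through MSC12, MSC11B and MSC7A, at 4.88, 5.06 and 4.67, while each of the other non-spindle lines lay at 7.43 or above. The difference between spindle and non-spindle lines was -2.69 (SE 0.78, limma adjusted p = 0.10), and without the 3 lines it was -3.71 (SE 0.50, adjusted p = 0.000154). These lines carried the overlap and were set apart after their values were seen, so that adjusted p is not independent support. The fit without them called 15.5% of all tested genes. Lacking MSC12, MSC11B or MSC7A alone, the fit called Wnt7a at adjusted p = 0.0497, 0.0386 and 0.0467. With array weights it was called too (-2.87, adjusted p = 0.00783). A second Wnt7a probe set, above the array median on all 26 arrays, spanned 0.61 log2 units over the lines and differed by -0.02 (SE 0.08, adjusted p = 0.921).

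Wnt4 had log2 levels from 5.86 in A5 through a median of 6.38 to 7.35 in H11 in spindle lines. In non-spindle lines it ran from 5.80 in E4 through a median of 7.68 to 11.50 in MSCP1, and the keratinocyte lines had 8.96 in C5N and 10.60 in NK. Both keratinocyte values lay above every spindle line, whereas the non-spindle lines fell on either side, with E4, SN161, MSC11B, B9rassmad, MSC12 and MSC7A within or just below the spindle range. The difference between spindle and non-spindle lines was -1.88 (SE 0.81, limma adjusted p = 0.20), and between spindle and keratinocyte lines it was -3.34 (SE 1.36, adjusted p = 0.16). Neither passed the test. Without MSC12, MSC11B and MSC7A the first was -2.43 (SE 0.83, adjusted p = 0.0546), and with array weights it was -2.34 (SE 0.74, adjusted p = 0.0374), which is a call. By a second Wnt4 probe set the differences were -1.10 (SE 0.54) and -2.44 (SE 0.90), neither called.

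Wnt7b, another epidermal ligand, had log2 levels from 6.45 in MSC11B through a median of 9.17 to 11.04 in SN161 in non-spindle lines, and from 6.68 in CarB through a median of 7.11 to 8.65 in D3 in spindle lines. D3 was the only spindle line above 8, and MSC12, MSC11B and MSC7A were the only non-spindle lines below it. The difference was -1.38 (SE 0.54, limma adjusted p = 0.17) with all lines and -2.08 (SE 0.34, adjusted p = 0.00114) without those 3. Wnt9a differed by -0.86 (SE 0.34, adjusted p = 0.17), with levels of 5.51 to 6.31 in spindle and 5.61 to 8.69 in non-spindle lines, and by -1.14 (SE 0.33, adjusted p = 0.0273) without the 3 lines. Of the 10 ligands tested, 8 had a lower mean in spindle than in non-spindle lines, against 5590 of all 12641 genes tested. These 8 differences ran from -0.09 for Wnt6 to -2.69 for Wnt7a, and none passed the test with all lines weighted equally. Wnt7a, Wnt7b and Wnt9a passed it without the 3, and these and Wnt4 passed it with array weights.

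The 250 bases before the annotated starts of Wnt7a and Wnt4 are shown because these are the ligands with the largest differences between the carcinoma groups (RefSeq, GRCm38.p6, 5′ to 3′ in the direction of the gene). Wnt7a lies on the minus strand at chr6:91411354-91411603, and Wnt4 on the plus strand at chr4:137277385-137277634. Capitals mark a match to CAGGTG, an E-box of the kind bound by Snail and Zeb factors, here on the opposite strand at 15 to 10 bases before the start.
Wnt7a: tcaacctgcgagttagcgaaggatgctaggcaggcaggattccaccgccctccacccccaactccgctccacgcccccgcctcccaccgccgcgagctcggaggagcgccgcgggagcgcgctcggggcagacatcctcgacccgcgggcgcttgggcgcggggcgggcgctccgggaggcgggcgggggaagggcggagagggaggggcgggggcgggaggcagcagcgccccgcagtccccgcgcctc
Wnt4: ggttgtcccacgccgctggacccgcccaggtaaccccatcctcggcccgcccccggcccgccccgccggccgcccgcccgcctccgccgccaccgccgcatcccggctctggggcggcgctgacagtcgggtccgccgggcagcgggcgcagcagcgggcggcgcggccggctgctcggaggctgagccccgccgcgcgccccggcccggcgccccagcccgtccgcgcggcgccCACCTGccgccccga
Of the Wnt7a bases 77.6% were G or C, with 34 CpG dinucleotides, and of the Wnt4 bases 85.2%, with 44. The median over the 32851 RefSeq windows of this length was 52.4% and 6, and over the 40 windows of the 33 members with an entry it was 66.4% and 18.5. CAGGTG was found on either strand in 11 of the 40 member windows (27.5%) and in 17.2% of all windows. CTTTGAT, the core bound by Tcf and Lef factors, was found in 2 of the 40, those of Wnt11 and Wnt5b (5%), and in 3.21% of all windows. A match is a description of the letters, and its absence says only that they are not in this window.

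Wnt10a and Wnt5a set the keratinocyte lines apart from many carcinoma lines without passing the test. Wnt10a, a ligand needed for skin appendages, had log2 levels of 10.74 in C5N and 10.25 in NK. Non-spindle lines ran from 5.79 in MSC7A through a median of 6.59 to 10.79 in MSCP5, and spindle lines from 5.95 in D3DP through a median of 7.83 to 8.91 in CarB. All spindle lines lay below both keratinocyte lines, and MSCP5 was the non-spindle line within the keratinocyte range or above. The difference was -3.07 (SE 1.09, limma adjusted p = 0.20) for non-spindle and -2.97 (SE 1.14, adjusted p = 0.14) for spindle against keratinocyte lines. Without MSC12, MSC11B and MSC7A the non-spindle difference was -2.58 (SE 1.07, adjusted p = 0.29). With B9Smad and the third keratinocyte line placed by their labels, Wnt10a was called in spindle against keratinocyte lines, at -3.42 (adjusted p = 0.0343).

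Wnt5a, the best known ligand that signals without beta-catenin, had log2 levels of 4.0 in C5N and 3.83 in NK, below the median of either array. Both carcinoma groups held low and high lines. The non-spindle lines E4, B9 and SN161 had 3.86, 4.14 and 4.32 and the spindle lines A5 and H11 had 3.79 and 3.83, whereas the remaining carcinoma lines of these groups lay between 5.71 in PDVC57 and 9.29 in MSC7A. The difference from keratinocyte lines was 2.70 (SE 1.27, limma adjusted p = 0.40) in non-spindle and 2.37 (SE 1.33, adjusted p = 0.33) in spindle lines. Neither passed the test, and without MSC12, MSC11B and MSC7A the first was 2.24 (SE 1.25, adjusted p = 0.494). Another Wnt5a probe set gave larger differences, 3.07 (SE 1.47) and 2.73 (SE 1.54). A further tested probe set gave smaller ones, 1.33 (SE 0.86) and 1.39 (SE 0.91). None of these was called.

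The other tested ligands, Wnt3a, Wnt6, Wnt10b and Wnt11, stayed within narrower limits, and each was high in single lines. Wnt10b had log2 levels of 7.37 in A5, 7.05 in E4 and 7.03 in H11, against 6.23 or less in every other line. Wnt11, a ligand of cell movement, reached 7.44 in B9 and 6.92 in SN161, and Wnt3a reached 6.48 in NK and 6.41 in MSCP5. Wnt6 reached 7.44 in the papilloma line P6 and 7.17 in MSC12. Differences between groups in these 4 genes were between -0.69 and 0.48 on the log2 scale over all comparisons, none past the test, and between -0.69 and 0.70 without MSC12, MSC11B and MSC7A.

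**Figure D2:**
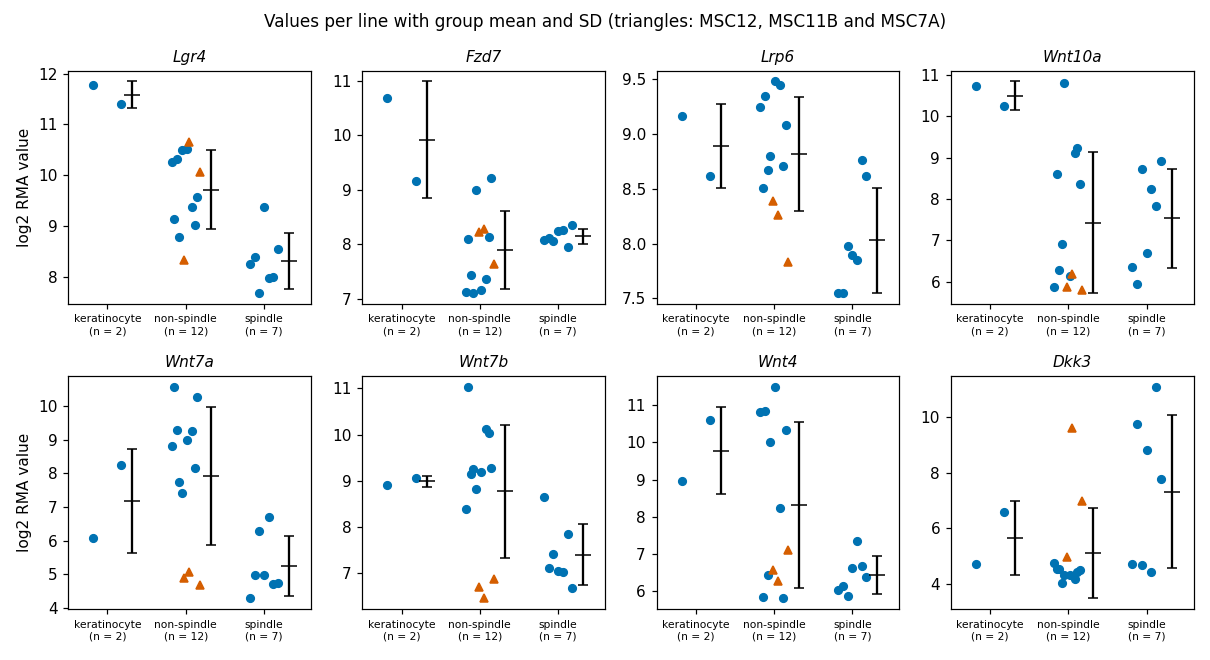
Log2 RMA values of single genes in each line of the keratinocyte, non-spindle and spindle groups, 1 panel per gene, with the group mean and SD beside the points and MSC12, MSC11B and MSC7A drawn as triangles. For Lgr4 the 2 keratinocyte lines lie above all carcinoma lines, and for Wnt7a the triangles lie among the spindle values.

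Of the receptors, Lgr4 showed the clearest ordering. Lgr4 is a receptor for R-spondins, and its log2 level was 11.77 in C5N and 11.40 in NK. Non-spindle lines ran from 8.34 in MSC12 through a median of 9.82 to 10.66 in MSC11B, and spindle lines from 7.68 in A5 through a median of 8.25 to 9.38 in MSN2. Every carcinoma line of both groups lay below both keratinocyte lines, while the carcinoma groups overlapped each other between 8.34 and 9.38. Groups that do not overlap were seen for 22.9% of all tested genes in spindle against keratinocyte lines, where 3 members were higher and 7 lower throughout, and for 5.66% in non-spindle against keratinocyte lines, with 2 members higher and 1 lower.

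In spindle against keratinocyte lines Lgr4 differed by -3.27 (SE 0.53, limma adjusted p = 0.00135), a 9.65-fold lower signal in spindle lines, and it was called in each of the 21 fits that left out 1 line. Against keratinocyte lines the non-spindle lines differed by -1.87 (SE 0.51, adjusted p = 0.0601), which passed the test without MSC12, MSC11B and MSC7A (adjusted p = 0.0435). Spindle and non-spindle lines differed by -1.39 (SE 0.31, adjusted p = 0.0599), and by -1.40 (SE 0.29, adjusted p = 0.00599) without those 3 lines. The log2 difference was thus of like size either way, and the adjusted p moved. A second Lgr4 probe set stayed below the array median on every array.

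Fzd7, a Frizzled receptor for several Wnt ligands, had log2 levels of 10.68 in C5N and 9.16 in NK. Non-spindle lines ran from 7.10 in B9rassmad through a median of 7.87 to 9.22 in B9, and spindle lines from 7.95 in CarC through a median of 8.12 to 8.35 in CarB. B9 was the only non-spindle line above NK, and the spindle lines lay close together below both keratinocyte lines. The difference from keratinocyte lines was -2.02 (SE 0.46, limma adjusted p = 0.0209) in non-spindle lines and -1.77 (SE 0.48, adjusted p = 0.0368) in spindle lines. Without C5N these were -1.26 (adjusted p = 0.517) and -1.01 (adjusted p = 0.449), so neither call held with NK as the lone keratinocyte line. With name family as a random block the spindle difference was not called (adjusted p = 0.0555). Both calls stood in the fit lacking MSC12, MSC11B and MSC7A, at -2.07 (adjusted p = 0.0382) and -1.77 (adjusted p = 0.0409). The third keratinocyte line had a Fzd7 level of 8.30 and a Lgr4 level of 10.31, within the non-spindle range, and with it and B9Smad placed by their cell type labels the Fzd7 differences were -1.48 (adjusted p = 0.0997) and -1.34 (adjusted p = 0.0758), neither called. In a fit of every probe set, a second Fzd7 probe set differed by -1.25 (SE 0.29, adjusted p = 0.0285) and -0.94 (SE 0.30, adjusted p = 0.0819).

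The 250 bases before the starts of Lgr4 and Fzd7, the members that passed the test, are shown from the same RefSeq table. Lgr4 lies on the plus strand at chr2:109917397-109917646 and Fzd7 on the plus strand at chr1:59481897-59482146. Neither window held CTTTGAT or CAGGTG on either strand, so no base is in capitals.
Lgr4: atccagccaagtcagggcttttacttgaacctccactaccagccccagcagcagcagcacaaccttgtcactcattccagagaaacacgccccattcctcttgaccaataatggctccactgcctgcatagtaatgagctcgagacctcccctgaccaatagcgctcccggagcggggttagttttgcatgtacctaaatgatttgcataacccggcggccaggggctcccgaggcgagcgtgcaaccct
Fzd7: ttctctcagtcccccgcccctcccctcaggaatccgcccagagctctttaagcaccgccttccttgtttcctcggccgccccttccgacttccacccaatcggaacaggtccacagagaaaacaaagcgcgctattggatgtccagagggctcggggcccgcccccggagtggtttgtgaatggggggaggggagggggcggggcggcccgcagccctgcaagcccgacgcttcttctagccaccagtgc
Of the Lgr4 bases 55.6% were G or C, with 10 CpG dinucleotides, and of the Fzd7 bases 65.2%, with 17, so that both lay below the ligand windows shown above in either measure.

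Fzd4 and Fzd5 ran the other way. Fzd4, the receptor of Norrin as well as of Wnt ligands, had log2 levels of 4.58 in C5N and 5.17 in NK, against 5.56 to 8.43 in non-spindle and 5.65 to 7.12 in spindle lines. Fzd5 had 5.50 in C5N and 5.45 in NK, against 5.70 to 8.43 in non-spindle and 6.27 to 7.53 in spindle lines. By these probe sets both genes had lower values in the keratinocyte lines than in every carcinoma line of either group. The differences missed the test: 1.52 (SE 0.58, limma adjusted p = 0.24) for Fzd4 and 1.87 (SE 0.60, adjusted p = 0.14) for Fzd5 in non-spindle lines, with 1.40 and 1.32 in spindle lines. Without MSC12, MSC11B and MSC7A the non-spindle differences were 1.52 (adjusted p = 0.197) and 2.06 (adjusted p = 0.101). Second probe sets gave smaller ones, 0.84 (SE 0.54) for Fzd4 and 0.68 (SE 0.23) for Fzd5. The third keratinocyte line did not follow C5N and NK, with the highest Fzd5 level of all lines, 9.30, and a Fzd4 level of 5.77.

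Fzd6, which orients hair follicles through planar polarity, and Fzd1 were marked by single lines. The log2 level of Fzd6 was 9.84 in C5N and 10.61 in NK, from 7.53 in CarB through a median of 9.28 to 9.97 in A5 in spindle lines, and from 5.23 in MSC12 through a median of 10.24 to 10.62 in PDVC57 in non-spindle lines. MSC12 lay 3.54 below the next lowest line of its cross group, MSC7A at 8.77. Spindle and non-spindle lines differed by -0.80 (SE 0.60, limma adjusted p = 0.46), and by -1.48 (SE 0.33, adjusted p = 0.00802) without MSC12, MSC11B and MSC7A. With all lines a second Fzd6 probe set differed by -0.71 (SE 0.50), and the remaining probe set, which spanned 0.63 log2 units over the lines, by 0.00 (SE 0.10).

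Fzd1 had log2 levels of 13.76 in MSC11B, 13.34 in D3DP, 13.26 in MSN2 and 11.73 in D3, whereas all other lines lay between 8.22 in E4 and 10.56 in MSCb1. Spindle lines thus held both high and ordinary levels, with a group mean of 10.84 ± 1.97 (SD, n = 7) against 9.55 ± 1.42 (SD, n = 12) in non-spindle lines. The difference of 1.29 (SE 0.72, limma adjusted p = 0.31) was smaller than the SD of either group. It was 1.70 (SE 0.63, adjusted p = 0.0726) without MSC12, MSC11B and MSC7A.

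Lgr6, an R-spondin receptor of hair follicle stem cells, was low or high without regard to group. Its log2 level was 4.25 in NK and 7.6 in C5N, 4.27 to 9.73 in non-spindle lines with B9ras lowest and B9 highest, and 4.54 to 8.97 in spindle lines with CarB lowest and A5 highest. Lines of 1 name stem could lie far apart, as B9 did from B9ras. The largest of its group differences was 1.53 (SE 1.49, limma adjusted p = 0.61), in spindle against keratinocyte lines.

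Lrp6 and Lrp5 are the co-receptors that carry the signal to beta-catenin. The log2 level of Lrp6 was 9.16 in C5N and 8.62 in NK, from 7.83 in MSC7A through a median of 8.75 to 9.48 in MSCP1 in non-spindle lines, and from 7.55 in D3 through a median of 7.90 to 8.76 in CarC in spindle lines. CarC and CarB, at 8.76 and 8.62, were the spindle lines that reached the keratinocyte range. Spindle and non-spindle lines differed by -0.78 (SE 0.23, limma adjusted p = 0.10), and by -1.0 (SE 0.21, adjusted p = 0.00522) without MSC12, MSC11B and MSC7A. For Lrp5 the differences were -0.50 (SE 0.26, adjusted p = 0.28) and -0.73 (SE 0.23, adjusted p = 0.0432).

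Among the inhibitors, Dkk3 had the widest range of all 49 members. Dkk3 is a divergent Dkk protein that does not bind the Lrp co-receptors as Dkk1 does. Its log2 level was 4.73 in C5N and 6.60 in NK, from 4.03 in B9rassmad through a median of 4.51 to 9.62 in MSC11B in non-spindle lines, and from 4.43 in H11 through a median of 7.77 to 11.09 in CarC in spindle lines. The spindle lines CarC, D3DP, MSN2 and CarB were high, at 7.77 or above, while D3, A5 and H11 lay between 4.43 and 4.71 with most non-spindle lines. D3 and D3DP, which share a name stem, differed by their levels of 4.71 and 9.76. The group difference was 2.22 (SE 0.92, limma adjusted p = 0.19), and without MSC12, MSC11B and MSC7A, of which the last 2 had 9.62 and 7.0, it was 2.92 (SE 0.84, adjusted p = 0.0278). The fibroblast marker mean was 10.44 in CarC and 8.80 in CarB but 6.13 in D3DP and 5.86 in MSN2, and its part in the Dkk3 levels was not tested.

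Sfrp2, a secreted decoy that resembles the ligand-binding part of Frizzled, was high in few lines. Its log2 level was 6.41 in MSC11B, 5.17 in MSC12, 5.16 in MSC7A and 4.16 in MSCP5, and in every other line it was 3.6 or less. All 4 lines were non-spindle lines of the Spretus/CBA cross. Spindle and non-spindle lines differed by -0.60 (SE 0.36, limma adjusted p = 0.35), and by -0.08 (SE 0.12, adjusted p = 0.677) without MSC12, MSC11B and MSC7A.

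Nkd1, which binds Dishevelled and is itself switched on by the pathway, had a small difference by a probe set that spanned 0.70 log2 units over all lines. Its other probe sets stayed below the array median on every array. Its log2 level ran from 5.59 in H11 through a median of 5.75 to 5.93 in CarC in spindle lines, and from 5.22 in B9ras through a median of 5.47 to 5.70 in MSC7A in non-spindle lines. The groups overlapped between 5.59 and 5.70. The difference was 0.28 (SE 0.08, limma adjusted p = 0.0974), or 0.30 (SE 0.08, adjusted p = 0.0261) without MSC12, MSC11B and MSC7A.

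For Sfrp1, another secreted Frizzled-like inhibitor, the probe set with the highest mean was the least variable of 5. Its log2 values spanned 1.10 over the 26 lines, with 6.39 in C5N, 6.60 in MSC7A and 6.11 in MSN2, whereas the ranges of the other 4 lay between 3.41 and 4.42. By the probe set with the lowest adjusted p among those, C5N had 8.16, NK 6.19, MSC7A 7.86 and MSN2 6.38, and CarB, CarC, A5, D3, D3DP and H11 lay between 4.40 and 4.61. No Sfrp1 probe set was called in any comparison, and the lowest adjusted p among them was 0.056, for the same probe set at -2.40 in spindle against keratinocyte lines. Sfrp4 and Sfrp5 differed by 0.26 or less between groups in every comparison.

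**Figure D3:**
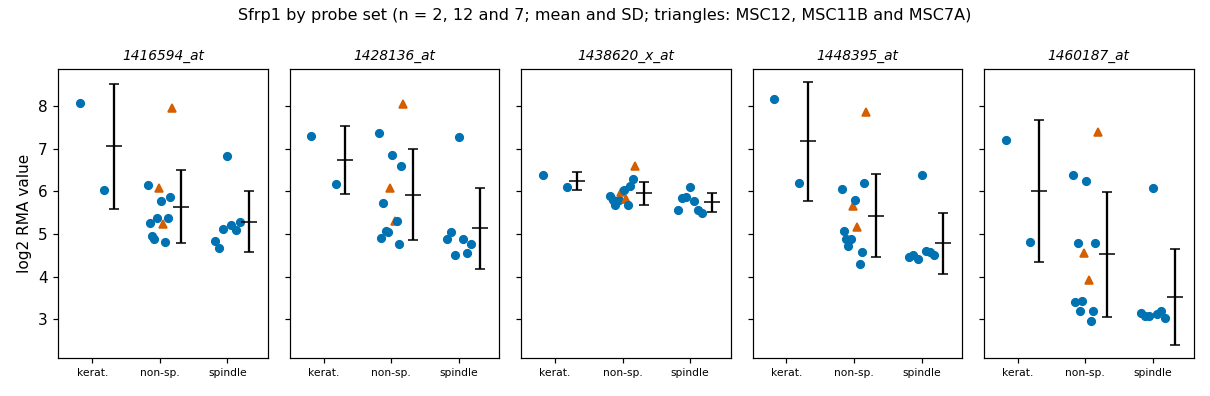
Log2 RMA values of 5 Sfrp1 probe sets, 1 panel each, in keratinocyte (n = 2), non-spindle (n = 12) and spindle (n = 7) lines, with group mean and SD and with MSC12, MSC11B and MSC7A as triangles. The probe set used for the fit (middle panel) spans 1.10 log2 units over all 26 lines and the others span 3.41 to 4.42.

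Of the factors and targets, Tcf7l2, a nuclear partner of beta-catenin, varied most among non-spindle lines. Its log2 level there ran from 4.02 in B9 through a median of 5.10 to 7.31 in MSC11B, while spindle lines ran from 5.73 in D3 through a median of 6.53 to 6.66 in CarB, and the keratinocyte lines had 6.81 and 6.38. Spindle lines overlapped the keratinocyte lines, and the non-spindle lines E4, MSC7A, MSCP5, MSC12 and MSC11B lay at 6.34 or above. Spindle and non-spindle lines differed by 0.83 (SE 0.45, limma adjusted p = 0.30), and by 1.34 (SE 0.35, adjusted p = 0.0184) without MSC12, MSC11B and MSC7A. With all lines the other 3 Tcf7l2 probe sets tested gave smaller differences, 0.04, 0.22 and 0.41, none called.

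Axin2, a scaffold of the beta-catenin destruction complex and a widely used readout of the pathway, passed the test in no comparison with lines weighted equally. Its log2 level was 5.69 in C5N and 5.61 in NK, from 5.10 in SN161 through a median of 5.95 to 6.63 in MSCP5 in non-spindle lines, and from 5.25 in H11 through a median of 5.35 to 5.87 in D3 in spindle lines. The third keratinocyte line had the highest level, 8.07, and also the highest Wnt9a, at 9.11. The difference between spindle and non-spindle lines was -0.33 (SE 0.22, limma adjusted p = 0.40), with a 1.26-fold lower signal in spindle lines. It was -0.53 (SE 0.21, adjusted p = 0.0865) without MSC12, MSC11B and MSC7A, and with array weights it was called, at -0.54 (SE 0.18, adjusted p = 0.0431). Lef1, the factor of hair follicle precursors, had levels of 4.48 and 4.19 in C5N and NK and 4.80 to 5.52 in spindle lines, a difference of 0.70 (SE 0.31, adjusted p = 0.20). Tcf7l1, a mostly repressive Tcf factor, ranged from 6.58 in PDVC57 to 7.95 in MSCb1 over all lines. Its group differences lay between -0.28 and 0.31, or between -0.40 and 0.27 without MSC12, MSC11B and MSC7A.

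**Figure D4:**
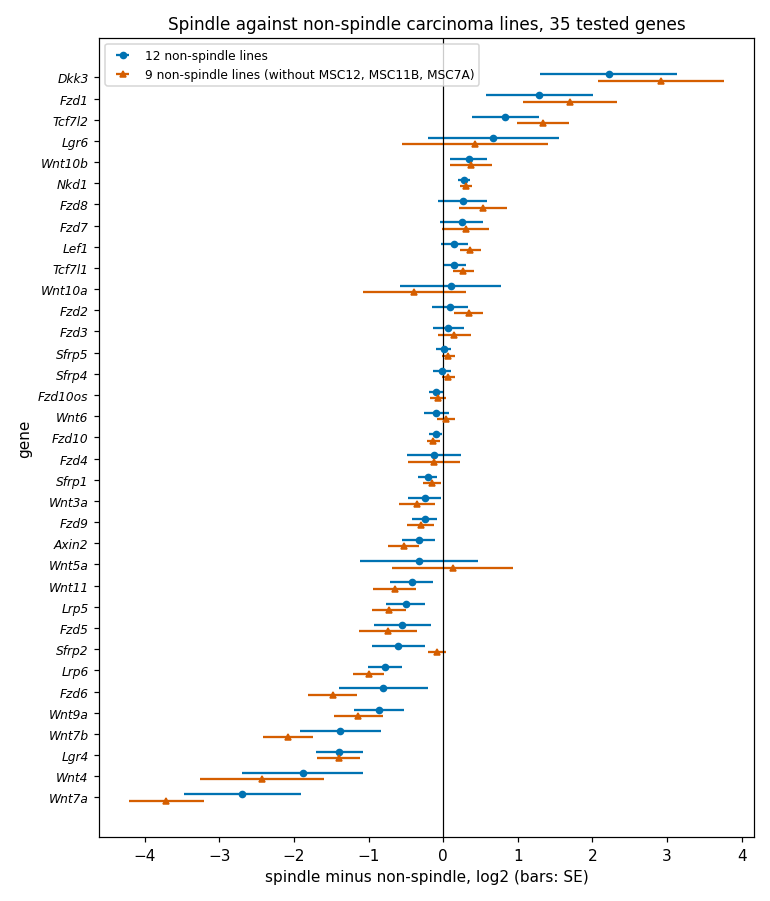
Difference between spindle and non-spindle lines (log2, with limma's SE) for each tested member, with all 12 non-spindle lines as circles and with 9 of them, without MSC12, MSC11B and MSC7A, as triangles. Wnt7a moves from -2.69 to -3.71 and Dkk3 from 2.22 to 2.92, while Lgr4 stays at -1.39 and -1.40.

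Within the non-spindle lines, the 6 of a Spretus cross were set against the 6 with no cross named. No member was called, 0 of 35, and limma called 0% of all tested genes. With array weights it called 2.4% of all tested genes and again 0 members. An unadjusted p under 0.05 was reached by 5 members, all higher in the cross lines, against 10.9% of all tested genes. Among these 5, Sfrp2 exceeded the array median on only 3 arrays, those of the cross lines MSC12, MSC11B and MSC7A. It was thus tested only because of the group in which it was higher, so its p is not independent support. Fzd8, a Frizzled receptor, had log2 levels from 6.24 in SN161 through a median of 6.94 to 7.29 in MSC12 in the cross lines, and from 4.92 in B9 through a median of 5.90 to 6.63 in B9ras in the others. The groups overlapped between 6.24 and 6.63, and the difference was 1.10 (SE 0.31, limma adjusted p = 0.417).

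For Tcf7l2 the difference between the cross groups was 1.40 (SE 0.56, limma adjusted p = 0.43), for Sfrp2 1.27 (SE 0.43, adjusted p = 0.42), for Fzd2 0.74 (SE 0.26, adjusted p = 0.42) and for Lef1 0.54 (SE 0.21, adjusted p = 0.42). MSC12, MSC11B and MSC7A are all cross lines, and without them the same differences were 0.57, 0.35, 0.36 and 0.17, and that of Fzd8 was 0.83. The squamous marker mean lay between 4.0 and 13.08 in the cross lines and between 8.26 and 12.83 in the others, and its part in these differences was not tested. Other Tcf7l2 probe sets differed by 0.33, 0.44 and 1.07 between the cross groups with all lines.

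**Figure D5:**
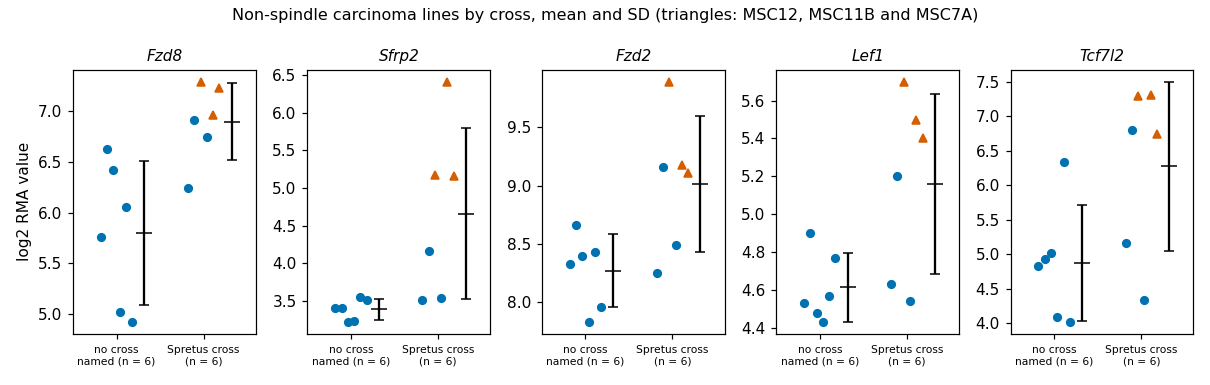
Log2 RMA values of members with an unadjusted p under 0.05 in the 6 Spretus-cross and the 6 other non-spindle lines, with group mean and SD and with MSC12, MSC11B and MSC7A as triangles. The triangles hold the highest values of Sfrp2, at 5.16 to 6.41, and the groups overlap in each gene.

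The members that failed the filter were the ligands Wnt1, Wnt2, Wnt2b, Wnt3, Wnt5b, Wnt8a, Wnt8b, Wnt9b and Wnt16, the receptor Lgr5, and the inhibitors Dkk1, Dkk2, Dkk4 and Wif1. Lgr5, a marker of hair follicle stem cells, ran from 4.01 to 4.69 on the log2 scale over all lines, below every array median. Dkk1, the classical blocker of Lrp5 and Lrp6, ran from 3.24 to 3.94. Single lines stood out for 4 of the others, with Wnt2 at 6.20 in CarC, Wnt16 at 6.24 and Wnt9b at 5.35 in MSCb1, and Dkk2 at 5.64 in MSC7A. A low value here gives no level, only that the probe set was at the dim end of its array.

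Of 67 further pathway genes, chosen from general knowledge of secretion, receptor turnover, the destruction complex, nuclear partners, planar polarity and target genes, 66 were measured and 57 tested. None was called between spindle and non-spindle lines or between the cross groups, where 13 and 12 had an unadjusted p under 0.05, against 20.7% and 10.9% of all tested genes. In non-spindle against keratinocyte lines 2 were called, both lower, against 2.02% of all tested genes, and in spindle against keratinocyte lines 3 were called, all lower, against 5.35%. Nkd2, a relative of Nkd1 that binds Dishevelled, fell by 3.20 on the log2 scale (SE 0.51, limma adjusted p = 0.0017) in non-spindle and by 3.69 (SE 0.54, adjusted p = 0.000546) in spindle lines, from a mean of 8.40 in keratinocyte lines. Celsr2, a cadherin of the planar polarity pathway, fell by 2.80 (adjusted p = 0.0212) and 3.83 (adjusted p = 0.00241). Its relative Celsr1 fell by 5.41 (SE 1.29, adjusted p = 0.0189) in spindle lines, from a mean of 9.07 to 3.66. Spindle means of Celsr1 and Nkd2, at 3.66 and 4.71, lay below the lowest array median, 5.04, so the size of these falls is uncertain. Nkd2, Celsr2 and Celsr1 are given from the main fit alone, without the alternatives used for the members, such as leaving out C5N. None of the 8 tested genes on the list of pathway targets was called in any comparison.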

How the data were processed

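The authors deposited log2 values made with RMA, per the submitters' processing notes, for 45037 probe sets on 26 arrays, with values from 2.28 to 14.92. RMA corrects background, sets the arrays to a common distribution and summarises probes, so near-background differences are compressed. Its version is not given in the sources used here. Of these probe sets 34945 carried 1 gene symbol, 932 several and 9160 none here, and 34741 of the single-gene probe sets matched RefSeq (GRCm38.p6). The probe set with the highest mean stood for each gene, which for 32 of the members meant a choice among several.

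Group means were fitted on the deposited log2 values by lmFit and eBayes of limma 3.58.1 under R 4.3.3, using 1 model for the keratinocyte, non-spindle and spindle lines, and for the cross within the non-spindle lines alone. P-values were adjusted by Benjamini-Hochberg over the 12641 genes tested. The fit was also run on simulated data with independent lines, which cannot show how it behaves where lines are related or a group is mixed. With 1 array per line, p-values measure the spread between lines, some of which share a name stem, and the number of arrays limits the precision. Every member could be named. Full values were given for called members and for up to 4 per role with the widest range, and further pathway genes were named only where called. Members, lists and alternatives were chosen with earlier results of these data known. The alternatives covered the filter, the choice of probe set, centring, array weights, the prior variance, name families, line placement and leaving out each line.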

Additional observations from a re-analysis of the deposited data

Results flagged for a closer look

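In 105 groups of 6 or 7 lines, 35 tested members in each of 3 groups, the highest or lowest line was checked for a gap to the next line that was large against the range of its group. Chance nominally flags about 1 in 20 such groups, and 10 were found. Among the Spretus-cross non-spindle lines, Fzd1 was 13.76 in MSC11B, where the next line was at 9.52, and Fzd6 was 5.23 in MSC12, where the next was at 8.77. In the same lines Fzd4 was 7.78 in MSC7A, with the next at 6.38, and Sfrp1 was 6.60 in MSC7A, with the next at 6.04. Among the non-spindle lines with no cross named, Fzd5 was 5.77 in B9rassmad, with the next at 7.65, and Axin2 was 5.11 in B9, with the next at 5.90. In that group Wnt10b was 7.05 in E4, with the next at 5.89, and Wnt3a was 5.75 in PDV, with the next at 5.27. Among the spindle lines, Tcf7l2 was 5.73 in D3, with the next at 6.27, and Fzd9 was 5.01 in D3, with the next at 4.68. All are log2 RMA values.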

How the results depend on the processing

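Lgr4 in spindle against keratinocyte lines was called under all 31 alternatives tried. The counts of called members in the comparisons of the 3 groups moved with single lines. In spindle against non-spindle lines 0 members were called, but 8 with array weights (22.9% of members, 17.6% of genes) and 10 without MSC12, MSC11B and MSC7A, an alternative added after the values were seen. Leaving out 1 line gave 0 to 3, with Lgr4 and Wnt7a called without MSC12 or without MSC11B, and Lrp6 besides without MSC7A. In those fits 179, 471 and 183 of the 12641 genes were called, against 8 with all lines. In non-spindle against keratinocyte lines the count was 1, but 0 with conflicting lines placed by label and 2 without the 3 lines, and it ran from 0 (without C5N) to 2 (without MSCP5 or MSC11B) when 1 line was left out. In spindle against keratinocyte lines the count was 2, but 1 with name family taken as a random block, where Fzd7 had an adjusted p of 0.0555, and 1 to 2 when 1 line was left out. Fzd7 was not called without D3, D3DP, A5, MSN2, CarC or C5N. Placing the conflicting lines by label left that count at 2, with Lgr4 and Wnt10a. Between the cross groups it was 0 under every alternative, although array weights called 304 genes. No difference of Lgr4 or Fzd7 in these calls changed sign. For Lgr4 in spindle against non-spindle lines, limma's unadjusted p was 0.000255 with all lines and 0.000177 without the 3. Called genes went from 8 to 1954 between these fits, and the adjusted p depends on all genes tested. The cause of these shifts was not tested. No paired analysis was possible because replicate numbers follow only the order of deposition.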

Other observations

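Lines outside the comparisons gave further values on the log2 scale. The papilloma line P6 had Wnt10a at 10.58, Wnt5a at 8.73, Lgr4 at 10.27, Fzd7 at 8.86 and Wnt6 at 7.44, the highest Wnt6 of all lines. MSCb1, a Spretus/CBA line with no stated spindle state, had the highest Wnt5a, 9.31, together with Dkk3 at 10.73, Fzd7 at 10.19 and the lowest Fzd8, 4.29. In 2945CA, whose spindle state is not stated either, Lgr4 was 7.65, the lowest of all lines, Wnt7a 4.46 and Dkk3 8.02. B9Smad, labelled spindle but not flagged so, had Wnt7a at 8.57, Wnt4 at 9.83 and Dkk3 at 4.88, with a squamous marker mean of 11.36. The third keratinocyte line had Wnt10a at 11.34, Wnt4 at 11.10, Dkk3 at 8.06 and Wnt5a at 3.96.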
